A study of Mus musculus with 30 samples.

Results

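The cytosolic ribosomal protein genes are the genes for the proteins of the 40S and 60S ribosomal subunits. They were taken as the protein-coding genes of the GRCm38 annotation whose symbol is Rpl or Rps followed by a subunit number, by the letter a of Rpsa or by the P0 to P2 names of the stalk, and 76 of the 54532 rows of the count table met this rule. Of the 76 genes, 46 encode proteins of the 60S subunit and 30 of the 40S subunit, and together they held 6.23% of all counts. The cells were murine erythroleukemia (MEL) cells of the DS19 clone, a mouse erythroid precursor line that makes hemoglobin in dimethyl sulfoxide (DMSO). WT cells and Abcb10-null cells were compared at days 0, 2 and 5 in 1.5% DMSO, with 5 libraries in each of the 6 groups. Abcb10 is an ATP-binding cassette transporter of the inner mitochondrial membrane, and it was disrupted with CRISPR/Cas9 in its first exon. All Abcb10-null libraries came from 1 clone, so the genotype and that clone cannot be told apart, and all cells of both genotypes received DMSO after day 0. The sample titles call the libraries of a group biological replicates 1 to 5. They do not say whether these came from separate cultures on separate days, so the p-values measure the spread between these libraries.

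A ribosome carries 1 copy of nearly every ribosomal protein, and cells make these proteins in near equal amounts while RNA polymerase I transcribes the rRNA they bind. Most of the mRNAs begin with a terminal oligopyrimidine (TOP) tract, a C followed by a run of C and T letters at the cap, through which mTORC1 and the RNA-binding protein LARP1 set how strongly they are translated and how stable they are. In erythroid cells ribosome number is high before hemoglobin synthesis and falls as the cells mature, and loss of 1 copy of some of these genes causes Diamond-Blackfan anemia, a failure of red cell precursors. Counts of mRNA bear on mRNA level only and say nothing of translation.

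To show what the transcripts share, the 30 bases around the annotated start of transcription are given for 8 members that recur in the results and for the paralog Rpl22l1. The sequences are from RefSeq, build GRCm38.p6, written 5′ to 3′ on the gene's strand with 15 bases on either side of the start, and the longest run of C and T letters is in capitals. Rpl10a and Rpl34 have a pair of annotated starts each, and both are shown.
Rpl12, chr2:32961697-32961726 (+): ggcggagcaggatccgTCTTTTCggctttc
Rpl10a, chr17:28328456-28328485 (+): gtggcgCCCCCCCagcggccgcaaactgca
Rpl10a, chr17:28328550-28328579 (+): gCTCTatttgagcgcatgcgcaaagcgctc
Rpsa, chr9:120127751-120127780 (+): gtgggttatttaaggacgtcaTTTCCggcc
Rpl34, chr3:130730323-130730352 (-): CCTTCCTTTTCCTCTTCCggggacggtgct
Rpl34, chr3:130730384-130730413 (-): cgCCTTCCCTgacgtacttcctgtccggcg
Rpl28, chr7:4792950-4792979 (+): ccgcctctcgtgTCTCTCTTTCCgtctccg
Rpl14, chr9:120571502-120571531 (+): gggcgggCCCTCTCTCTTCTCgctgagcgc
Rps9, chr7:3704026-3704055 (+): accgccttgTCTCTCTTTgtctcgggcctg
Rpl39, chrX:37085208-37085237 (-): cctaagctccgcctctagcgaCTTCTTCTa
Rpl22l1, chr3:28805493-28805522 (+): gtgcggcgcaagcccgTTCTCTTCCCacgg

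Of the 76 members, 56 had an entry in the RefSeq table, and 25 of the 56 (44.6%) had a run of 8 or more C or T letters within 15 bases of an annotated start, against 13.9% of 27025 genes in the table. Runs of 8 or more A or G letters, the same search on the other strand, were found in 3 members (5.36%) and in 15.3% of all genes. The letters CCGGAAG, the core of an ETS family binding site, stood on either strand in the 300 bases around the start (250 before and 50 after) of 23 members (41.1%) and of 9.93% of all genes. TATAAA was found in 10.7% of the members and 15.7% of all genes. Rpl14 has a run of 14 letters that takes in the annotated start. Rpl34 has a run of 18 that takes in its first start as printed and a run of 8 that lies before the other, and the runs of Rpl10a have 7 and 4 letters, while the longest run of Rpsa in this window has 5. The annotated start can lie some bases from the start used in these cells.

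Ribosomal protein genes have many processed copies in the genome, so the reads of some members can be placed elsewhere. Of the 51-base windows of each principal transcript, a median of 53.5% were also found in an annotated transcript of another gene, and 42 members had at least 50% of windows shared. Rps3 had 2.8%, whereas Rps27 had 98.6% and Rpl35 94.9%. How the authors counted reads with several placements is not given in the sources used here. The 301 rows for ribosomal protein pseudogenes together held 0.130% of all counts, and their summed level was 1421 to 1493 CPM (counts scaled by library total and TMM factors) in WT at day 0, 744 to 1136 CPM in WT at day 5 and 1386 to 1816 CPM in Abcb10-null at day 5.

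Ribosomal proteins are needed in equal number, and their mRNA levels were compared after division by coding length. In WT cells at day 0 the median member stood at 1799 CPM per kb of coding sequence, and 61 of the 76 lay within 2-fold of it. Rps16, Rpl29 and Rpl24 were lowest, at 188 ± 60.5, 214 ± 15.5 and 223 ± 14.1 CPM per kb (SD, n = 5), and these 3 did not differ beyond their spread. Of the windows of Rps16, Rpl29 and Rpl24, 41.4%, 65.8% and 81.7% were shared. The part of reads placed elsewhere in these low levels was not tested. Rps14 and Rps4x, 2 proteins of the small subunit, were among the highest at 4111 ± 467 and 3733 ± 263 CPM per kb, and they did not differ beyond their spread. Rpl41 was far above them at 16491 ± 965 CPM per kb, but its coding sequence has 75 bases in a transcript of 582, so this measure overstates it. The median member stood at 1588 CPM per kb in Abcb10-null cells at day 0, 1195 in WT at day 5 and 1723 in Abcb10-null at day 5.

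Libraries held 9906783 to 20157768 counts. Abcb10 itself was counted in all libraries, at 1152 to 1264 CPM in WT and 177 to 237 CPM in Abcb10-null at day 5, with log2 fold changes of -0.68, -1.54 and -2.54 at days 0, 2 and 5 (adjusted p = 1.2e-07, 0.00055 and 5.5e-08). Erythroid markers were present in both genotypes, with their summed level over 12 genes at 1884 to 2153 CPM in WT and 2009.6 to 2187 CPM in Abcb10-null at day 0, and at 10856 to 23964 and 5022 to 6571 CPM at day 5. Of 8 markers of lymphoid and other cells, 7 stayed under 1 CPM in the mean of every group. Of 10 myeloid and mast cell markers, 4 did so and none was at 0 in every group, and their summed level was 79.6 to 103 CPM in WT and 103 to 128 CPM in the null at day 0, 23.9 to 26.8 and 27.6 to 75.3 at day 2, and 14.1 to 18 and 34.2 to 50.5 at day 5, most of it from Spi1, a factor that MEL cells express. Among those high enough to be tested, 5 of 7 were higher in the null at day 0, 2 of 3 at day 2 and 3 of 5 at day 5. The shares over all genes were 19.7%, 14.9% and 19.8%. The part of these markers in the results was not tested. Libraries of a group were not alike in the summed level of the members. Replicates 1 and 2 of WT day 2 stood at 37618 and 37957 CPM against 59736 to 63753 in the other 3. In the same 2 libraries the nuclear RNAs Malat1 (4238 and 3827 CPM) and Neat1 (538 and 587 CPM) were higher than in the other 3, where Malat1 was 2080.2 to 2405 and Neat1 64.8 to 74.8 CPM. The null libraries of day 2 did not share this pattern throughout. Null replicate 3 had the lowest sum of its group (52664 CPM) with the highest Malat1 (4309 CPM) and Neat1 (289 CPM), but null replicate 2 had nearly the same sum (53308 CPM) with the lowest Malat1 (1149 CPM) and Neat1 (31.3 CPM). At WT day 5, replicate 2 was low and replicate 5 high, as given below. Counts of called members that rest on these libraries are given with and without them, and values of single genes only in part.

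The summed level of the 76 members was lower in WT cells after DMSO than before it, while in Abcb10-null cells the days overlapped. In WT it was 77686, 75714, 78093, 67589 and 72561 CPM in the 5 libraries at day 0, 37618, 37957, 60843, 59736 and 63753 CPM at day 2 and 51526, 34274, 49534, 46794 and 63973 CPM at day 5. All 5 WT libraries of day 5 were under all 5 of day 0. In Abcb10-null cells it was 63069, 63307, 71517, 68530.4 and 63433 CPM at day 0, 64983, 53308, 52664, 61523 and 68946 CPM at day 2 and 77968, 63480.2, 66591, 74913 and 79902 CPM at day 5. At day 5 the 5 null libraries and the 5 WT libraries overlapped in 1 place, since WT replicate 5 was above null replicate 2. As means, the sum was 74329 ± 4356 CPM in WT and 65971 ± 3849 in the null at day 0, 51981 ± 13040.4 and 60285 ± 7165 at day 2, and 49220.5 ± 10634 and 72571 ± 7189.7 at day 5 (SD, n = 5).

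**Figure D1:**
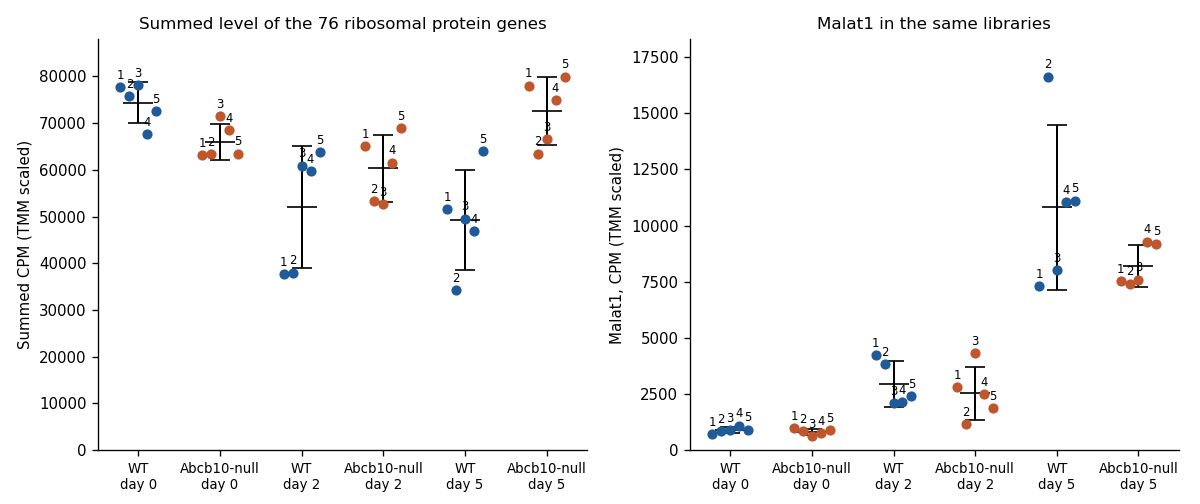
Summed level of the 76 ribosomal protein genes (left, CPM scaled with TMM) and Malat1 (right, CPM) in each of the 30 libraries, with the replicate number beside each point and the mean and SD of each group in black. WT libraries (blue) fall from day 0 to day 5 with a wide spread at days 2 and 5, whereas Abcb10-null libraries (orange) are at 63480.2 to 79902 CPM at day 5.

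WT libraries that stood apart at day 5 differed in other values too. Replicate 2, with the lowest sum, had 16625 CPM of Malat1 and 2.4% of counts on mitochondria-encoded genes, against 7292 to 11109.5 CPM and 1.25% to 2.14% in the other 4. Replicate 5, with the highest sum, had 10856 CPM over the erythroid markers, against 19536 to 23964 in the other 4. The part of these differences in the results was not tested.

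At day 0, before DMSO, most members were slightly lower in Abcb10-null cells. Of the 76 members, 48 were lower and 4 higher at an adjusted p under 0.05 in edgeR, beside 16.2% of the 12912 genes tested called lower and 19.7% called higher. The median log2 fold change of the members was -0.23, and that of all genes tested -0.0019. Rpl34, a protein of the large subunit, was at 511, 508, 507, 379 and 489 CPM in WT and 282, 272, 360.2, 327 and 277 CPM in Abcb10-null, so all 5 null libraries were under all 5 WT libraries. Its log2 fold change was -0.66 ± 0.089 (SE, adjusted p = 1.2e-05). Rps16 (ENSMUSG00000037563, chr7:28350652-28353155, plus strand) had a larger estimate, -0.96 ± 0.31 (SE, adjusted p = 0.021), but its libraries overlapped, with 38.2, 83.7, 98.8, 83.4 and 107 CPM in WT and 85.8, 44.1, 15.9, 35.1 and 30.1 CPM in the null, and it kept its call in 6 of 10 fits that each left out 1 library. Rps14, which lines the mRNA channel exit of the small subunit, had a log2 fold change of -0.54 ± 0.10 (SE, adjusted p = 0.00033).

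Rpl28, Rpl14 and Rps13 were the 3 members with the largest called increase at day 0. Rpl28, a protein found in the large subunit of eukaryotes, was at 432, 447, 463, 457 and 458 CPM in WT and 529, 545, 515, 497 and 554 CPM in the null, without overlap, and its log2 fold change was 0.22 ± 0.053 (SE, adjusted p = 0.0035). Rpl14 was at 1063, 903, 942, 963 and 915 CPM in WT and 993, 1101, 1042, 1113 and 1328 CPM in the null, and these ranges overlapped. Its log2 fold change was 0.21 ± 0.07 (SE, adjusted p = 0.024), and the call held in 6 of 10 fits that each left out 1 library. Rps13 was higher by 0.20 on the log2 scale (adjusted p = 0.032). In 24 members all 5 WT libraries were above all 5 null libraries, and in Rpl28 alone the reverse held. Such separation was not counted over all genes, so this number has no background share beside it. When all 30 libraries shared 1 estimate of the spread, 2 members were called lower and none higher at day 0, with a median of -0.22.

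At day 2, 2 members were higher in Abcb10-null cells and none lower, beside 14.9% of 13053 genes called higher and 16.9% lower. DESeq2 called 2 higher and none lower, and at an unadjusted p under 0.05 edgeR gave 4 higher and 0 lower. The share of all genes under that looser threshold was not counted, here or in the other comparisons. The median log2 fold change of the members was 0.16, with 69 of 76 above 0, and with library totals in place of TMM factors it was 0.0787 with 47 above 0. Rps9 was at 588, 569, 760.4, 794 and 774 CPM in WT and 1094, 853, 969, 1033 and 876 CPM in the null, with a log2 fold change of 0.42 ± 0.13 (SE, adjusted p = 0.027). Rpl12, a protein at the base of the stalk, was at 572, 565, 958, 1038 and 1048 CPM in WT and 1431, 1051, 1062, 1389 and 1362 CPM in the null, with a log2 fold change of 0.54 ± 0.19 (SE, adjusted p = 0.045). In both genes the null libraries were above the WT libraries, and WT replicates 1 and 2 were the lowest. Without those 2 libraries no member was called in either direction, the median of the members was -0.0901 with 21 above 0, and the log2 fold changes of Rps9 and Rpl12 were 0.27 (adjusted p = 0.18) and 0.266 (adjusted p = 0.24). With fewer libraries the number of all genes called was smaller too, at 359 higher and 379 lower.

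At day 5 most members were higher in Abcb10-null cells. Of the 76, 54 were higher and none lower, beside 19.8% of 12676 genes called higher and 17.8% lower, and DESeq2 called 57 higher and none lower. At an unadjusted p under 0.05, 65 were higher and 0 lower, without a count over all genes at that threshold. The median log2 fold change of the members was 0.53 and that of all genes -0.016. The quartiles of the members were 0.42 and 0.66, and the lowest was Rpl39 at -0.14, which was not called. Rpl12 (ENSMUSG00000038900, chr2:32961559-32965345 on the plus strand) was at 661, 424, 585, 561 and 905 CPM in the 5 WT libraries and 1529, 1269, 1359.5, 1605 and 1806 CPM in the 5 null libraries. The null libraries were all above the WT libraries, and the log2 fold change was 1.27 ± 0.17 (SE, adjusted p = 0.00015), or 2.41-fold. Rpl10a, part of the L1 stalk through which spent tRNA leaves the ribosome (ENSMUSG00000037805, chr17:28328471-28331033, plus strand), was at 304, 196, 319, 287 and 439.8 CPM in WT and 735, 588, 642, 746 and 819 CPM in the null. Again no library overlapped, and the log2 fold change was 1.19 ± 0.17 (SE, adjusted p = 0.00024). Rpsa, a small subunit protein also known as the laminin receptor (ENSMUSG00000032518, chr9:120127689-120132369, plus strand), was at 666, 455, 658, 607 and 1032 CPM in WT and 1429, 1218, 1243, 1476 and 1533 CPM in the null, with a log2 fold change of 1.01 ± 0.17 (SE, adjusted p = 0.00074).

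Rps3, few of whose windows are shared with another transcript, sits at the entry of the mRNA channel and was at 1981, 1203, 1801, 1649 and 2412 CPM in WT and 2993, 2320.4, 2370.3, 2731 and 2989.7 CPM in the null at day 5. WT replicate 5 lay among the null libraries, and the other 4 WT libraries were under all 5 of them. Its log2 fold change was 0.56 ± 0.16 (SE, adjusted p = 0.015). Rps16 was higher by 0.84 on the log2 scale (adjusted p = 0.011). At the other end of the called members, Rps15a, Rpl34 and Rplp2 were higher by 0.37, 0.38 and 0.41 (adjusted p = 0.04, 0.047 and 0.046). Rpl34 kept its call in 2 of 10 fits that each left out 1 library. Rpl39, which lines the peptide exit tunnel, was at 574, 353, 453, 466 and 349 CPM in WT and 386, 359, 346, 423 and 483 CPM in the null, with ranges that overlapped.

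In 28 members all 5 null libraries were above all 5 WT libraries at day 5, and in none was the reverse true. With WT replicate 5 set aside, the null libraries were above the other 4 WT libraries in 63 members. Neither count was made over all genes, so how unusual they are was not tested. Without WT replicate 5 the test called 68 members higher, and without WT replicate 4 it called 41, the most and the fewest of the 10 fits that left out 1 library. Without WT replicates 2 and 5 together, 64 members were higher and 1, Rpl39, was lower, with a log2 fold change of -0.347 (adjusted p = 0.04), and the median was 0.509. That fit called 2722 of 13517 genes higher and 2448 lower. The erythroid markers moved the other way, with all 11 tested lower in the null and a median of -1.49, and the part of cell maturity in the members' difference was not tested. In bulk RNA, fewer cells at a stage and less RNA per cell cannot be told apart.

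**Figure D2:**
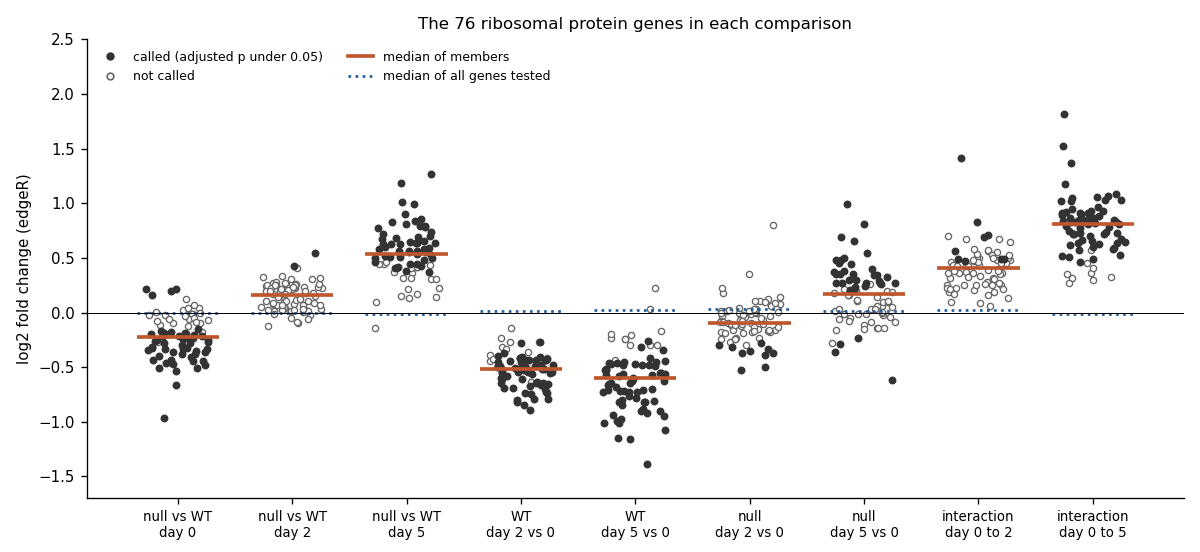
Log2 fold change of each of the 76 ribosomal protein genes (points, filled where the adjusted p was under 0.05) in the 9 comparisons, with the median of the members (orange line) and of all genes tested (dotted blue line). The members' median is -0.23 at day 0 and 0.53 at day 5 between genotypes, and all 76 points of both interactions lie above 0.

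Over differentiation the WT cells lowered most members. At day 2 against day 0, 60 members were lower and none higher, beside 30.7% of 12839 genes called lower and 31.5% higher, with a median log2 fold change of -0.51. DESeq2 called none higher and 66 lower, and with library totals in place of TMM factors 26 were lower with a median of -0.305. Without WT day 2 replicates 1 and 2, 46 members were lower and the median was -0.235, beside 3683 of 13212 genes called lower and 3958 higher. At day 5 against day 0, 64 members were lower and none higher, beside 34.7% of 12723 genes called lower and 36.5% higher, with a median of -0.60, and DESeq2 called none higher and 67 lower. Without WT day 5 replicates 2 and 5, 73 were lower and 2 higher, with a median of -0.586. That fit called 4858 of 13230 genes lower and 4881 higher. With all libraries and an unadjusted p under 0.05, no member was higher at either day, and 68 and 67 were lower. Rpl27, a member mutated in some families with Diamond-Blackfan anemia, was at 324, 330.5, 341, 291 and 303 CPM at day 0 and 125, 80.0, 121, 124 and 157 CPM at day 5 in WT. No library of day 5 reached the lowest of day 0, and the log2 fold change was -1.39 ± 0.14 (SE, adjusted p = 1.2e-06). Rpl34 and Rpl12 followed at -1.16 and -1.15 (adjusted p = 3.7e-06 and 3.4e-05). In 47 members all 5 libraries of day 0 were above all 5 of day 5. The like count over all genes was not made.

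12 of the members were not called between day 0 and day 5 in WT, among them Rpl17, Rpl23, Rpl28, Rpl32, Rpl39, Rplp0, Rplp2, Rps15a, Rps27, Rps29 and Rps4x. Rpl28 had the highest estimate, 0.22 ± 0.11 (SE, adjusted p = 0.094), and was at 432, 447, 463, 457 and 458 CPM at day 0 and 556, 385, 522, 542 and 629 CPM at day 5. The smallest of the called changes were those of Rpl5 at -0.26, Rps24 at -0.32 and Rpl22 at -0.34 (adjusted p = 0.044, 0.012 and 0.023). Rpl5 is a protein of the 5S particle, which also binds Mdm2.

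Abcb10-null cells did not lower the members as a group. At day 2 against day 0, 10 members were lower and none higher, beside 20.1% of 12940 genes called lower and 23.1% higher, with a median of -0.09, and DESeq2 called 1 higher and 12 lower. Without null day 2 replicate 3, 3 were lower, and at an unadjusted p under 0.05, 3 were higher and 12 lower. At day 5 against day 0, 32 members were higher and 4 lower, beside 33.9% of 12915 genes called higher and 33.3% lower, and the median was 0.17. Among those lower, Rpl27, Rpl14 and Rpl15 had log2 fold changes of -0.62, -0.36 and -0.29 (adjusted p = 2.5e-06, 0.0011 and 0.0066), and each was also lower in WT. Rpl27 was at 258, 266, 288, 272 and 256 CPM at day 0 and 163, 156, 171, 191 and 189 CPM at day 5, without overlap. Rpl28 was at 529, 545, 515, 497 and 554 CPM at day 0 and 869, 646, 703, 886 and 724 CPM at day 5, also without overlap, and rose by 0.54 ± 0.09 (SE, adjusted p = 6.4e-05) on the log2 scale. Rps16, Rpl17 and Rps27 had the highest estimates at 0.99, 0.81 and 0.69 (adjusted p = 0.017, 3.2e-06 and 6.8e-05). With all 30 libraries in 1 fit, 13 members were higher and 2 lower, and with all genes of at least 1 count kept, 10 were higher with a median of 0.0741. Without null day 5 replicate 5, 23 were higher and the median was 0.109.

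**Figure D3:**
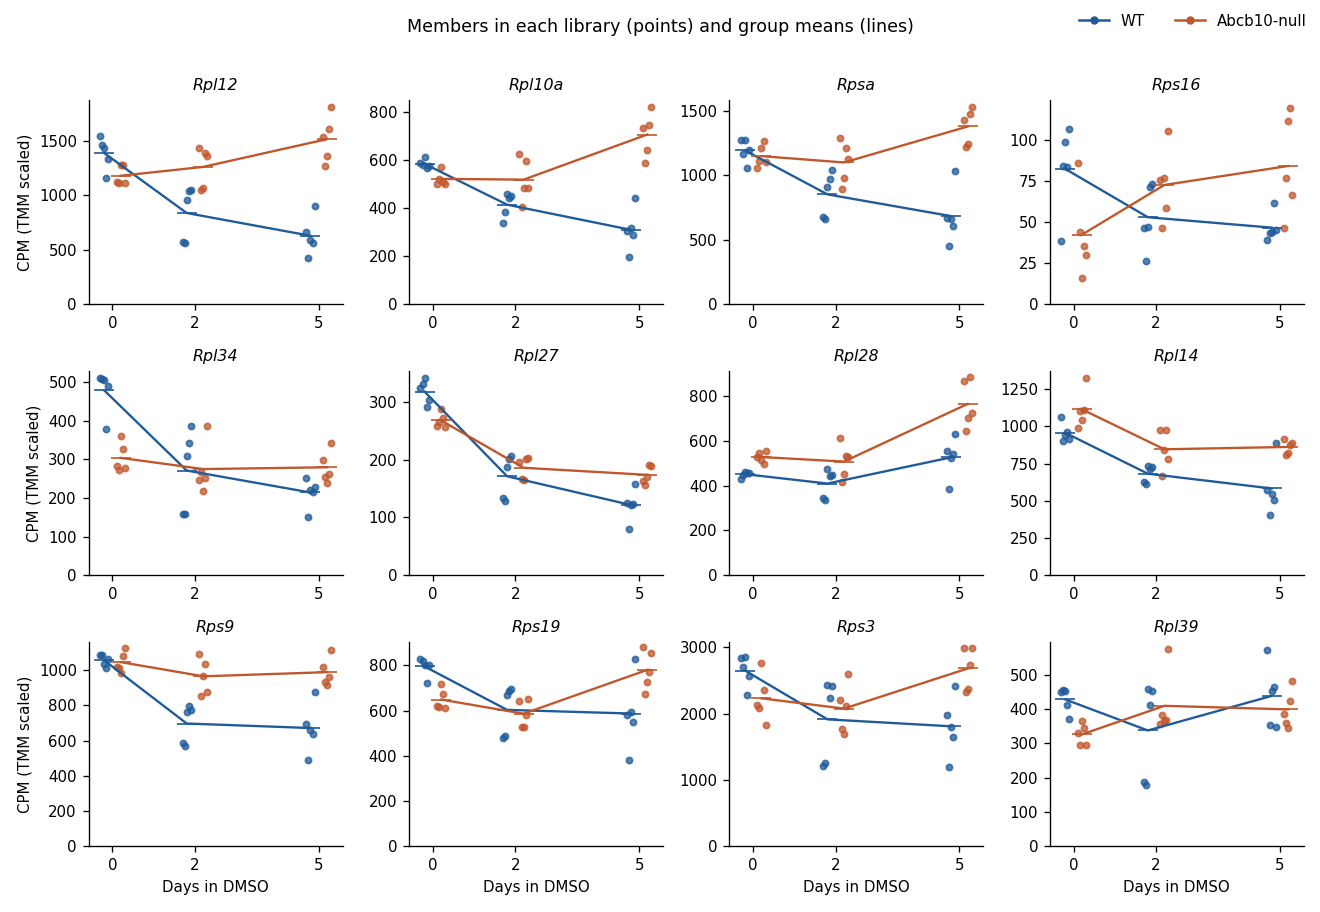
Level of 12 members (CPM scaled with TMM) in each library against days in DMSO, for WT (blue) and Abcb10-null (orange), with lines through the group means. Rpl12, Rpl10a and Rpsa part between the genotypes by day 5, Rpl27 falls in both, and Rpl39 overlaps at day 5.

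Whether the change over days differed between the genotypes was tested as an interaction. From day 0 to day 2, 9 members had a more positive change in Abcb10-null cells and none a more negative one, beside 12% of 13980 genes called higher and 10.8% lower, with a median of 0.41. The 9 were Rpl10a, Rpl11, Rpl12, Rpl19, Rpl23, Rpl35, Rps16, Rps2 and Rps9. Without WT day 2 replicates 1 and 2 only Rpl12 was called, with an interaction of 0.526 (adjusted p = 0.031), and the median of the members was 0.136. That fit called 965 of 14544 genes higher and 826 lower. With library totals the median was 0.231 and 1 member was called. From day 0 to day 5, 67 members had a more positive change in the null and none a more negative one, beside 16.8% of 14020 genes called higher and 14.7% lower. DESeq2 called 69 higher and none lower, and at an unadjusted p under 0.05, 73 were higher and 0 lower (29 and 0 from day 0 to day 2). The median interaction of the members was 0.81 on the log2 scale and that of all genes -0.011, and the estimate was above 0 in all 76.

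Rps16 had the highest interaction from day 0 to day 5, 1.82 ± 0.46 (SE, adjusted p = 0.004), followed by Rpl12 at 1.52 ± 0.20 (SE, adjusted p = 3.5e-06) and Rpl10a at 1.37 ± 0.19 (SE, adjusted p = 7.7e-06). The SE of Rps16 was the largest of the 3, with null libraries of 85.8, 44.1, 15.9, 35.1 and 30.1 CPM at day 0 and 46.1, 76.8, 111, 119 and 66.6 CPM at day 5. The smallest called interactions were those of Rpl37a, Rpl22 and Rpl7a at 0.46, 0.49 and 0.51 (adjusted p = 0.045, 0.02 and 0.005). The 9 members that were not called were Rpl13, Rpl14, Rpl15, Rpl24, Rpl28, Rpl39, Rpl7, Rplp2 and Rps4x. For Rpl28 the interaction was 0.33 ± 0.14 (SE, adjusted p = 0.087) with a 95% interval of 0.046 to 0.61 before adjustment, so the missed threshold does not show that the genotypes changed alike. Without WT day 5 replicates 2 and 5, 72 members were called higher and none lower, with a median of 0.796. That fit called 2748 of 15059 genes higher and 2223 lower. Of the 64 members lowered in WT by day 5, 22 were higher, 4 lower and 38 not called in Abcb10-null cells. Over all genes tested in the null, 33.9% were higher and 33.3% lower, so the 22 of 64 lie near the share called higher. The like count among all genes lowered in WT was not made.

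**Figure D4:**
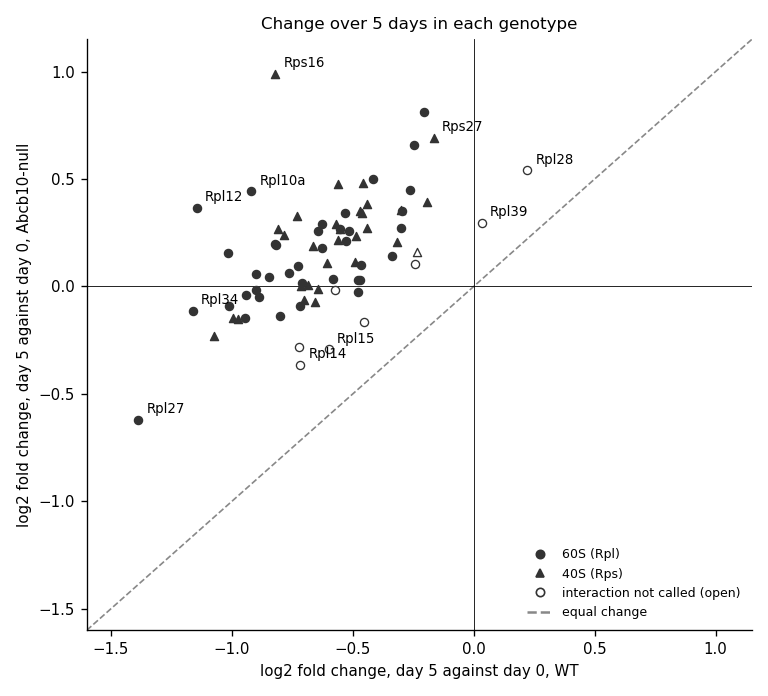
Log2 fold change from day 0 to day 5 of each of the 76 members in WT (x axis) against that in Abcb10-null cells (y axis), with 60S members as circles, 40S members as triangles, and open symbols where the interaction was not called. All points lie above the dashed line of equal change, with Rps16, Rpl12 and Rpl10a farthest from it.

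Both subunits took part. At day 5, 24 of 30 members of the 40S subunit and 30 of 46 of the 60S subunit were higher in the null, with medians of 0.56 and 0.49. At day 0, 16 of 30 and 32 of 46 were lower, with medians of -0.20 and -0.26. Over all genes, 19.8% were higher at day 5 and 16.2% lower at day 0. The ratio of the summed 60S to the summed 40S level was 1.49 to 1.55 in WT and 1.46 to 1.54 in the null at day 0, and 1.41 to 1.5 and 1.4 to 1.43 at day 5. The WT library nearest the null libraries at day 5 was replicate 5, at 1.41. Members were also split by the percent of their windows shared, which is not a number of copies. Rpl21 had 26.1% of windows shared, but with 81 other genes. At day 5, 23 of 34 members with under 50% of windows shared and 31 of 42 others were higher, with medians of 0.53 and 0.55. Among 69 members without a large overlap with a gene on the opposite strand, 48 were higher, with a median of 0.53. Overlaps on the same strand were not set aside. Rpl24, Rpl13a and Rps10, with 47.0%, 29.4% and 20.6% of their exon bases in another gene on the same strand, remained among the 69. Of the 56 members with a RefSeq entry, those with a run of 8 or more C or T letters within 15 bases of a start had a median of 0.45 (16 of 25 higher). Those without it had 0.56 (24 of 31 higher). Such a run can lie before the start, so this split does not sort the members by TOP tract.

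The 3 stalk proteins form the arm that recruits the elongation factors. Rplp0, Rplp1 and Rplp2 had log2 fold changes of 0.41, 0.42 and 0.41 at day 5 (adjusted p = 0.057, 0.07 and 0.046), so that only the last was called. At day 0 Rplp0 and Rplp1 were lower, at -0.15 and -0.47 (adjusted p = 0.039 and 8.5e-05). Among 20 members mutated in Diamond-Blackfan anemia, 16 were lower at day 0 with a median of -0.29, none was called at day 2, and 13 were higher at day 5 with a median of 0.44. Their interaction from day 0 to day 5 was called in 19 of 20. Over all genes, 16.2% were lower at day 0, 19.8% were higher at day 5 and 16.8% were higher in that interaction. Rps19, the first of these genes to be linked to the disease, was at 828, 819, 802, 723 and 801 CPM in WT and 621, 617, 718, 675 and 611 CPM in the null at day 0, a log2 fold change of -0.30 ± 0.061 (SE, adjusted p = 0.00083). At day 5 it was at 580.4, 382, 594, 547 and 829 CPM in WT and 879, 673, 726, 769 and 853 CPM in the null, where WT replicate 5 lay among the null libraries, and the log2 fold change was 0.41 ± 0.16 (SE, adjusted p = 0.066).

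Other genes of the anemia lie outside the ribosome. Tsr2, the chaperone of Rps26, was higher in the null by 0.97 ± 0.22 (SE, adjusted p = 0.0068) at day 2 and 0.99 ± 0.15 (SE, adjusted p = 0.0003) at day 5. Without WT day 2 replicates 1 and 2, the day 2 difference of Tsr2 was 0.97 (adjusted p = 0.058), as large but not called. Heatr3, the import factor of Rpl5 and Rpl11, was higher by 0.66 ± 0.20 (SE, adjusted p = 0.019) at day 5. Gata1, the erythroid transcription factor, was lower, at -0.68 ± 0.12 (SE, adjusted p = 0.00095) at day 5. Ribosomal proteins whose symbols the rule does not match were also counted. Rack1, Fau and Rps3a1 were higher at day 5 by 0.93, 0.52 and 0.48 (adjusted p = 0.0013, 0.019 and 0.014).

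Of 9 paralogs, 5 were high enough to be tested. Rpl22l1, the paralog of Rpl22, was at 156, 149, 187, 137 and 140.4 CPM in WT and 95.9, 90.2, 116, 99.2 and 92.6 CPM in the null at day 0. By day 5 it was at 53.9, 35.0, 45.0, 43.0 and 83.3 CPM in WT and 165, 151, 139, 130.0 and 196 CPM in the null. The order of the genotypes thus turned without overlap at either day, with log2 fold changes of -0.65 ± 0.086 (SE, adjusted p = 1.1e-05) at day 0, 0.93 ± 0.24 (SE, adjusted p = 0.013) at day 2 and 1.58 ± 0.20 (SE, adjusted p = 8.8e-05) at day 5. Without WT day 2 replicates 1 and 2 the day 2 value was 0.595 (adjusted p = 0.078) and was not called. Rpl22 itself was at 764, 476, 619, 594 and 668 CPM in WT and 805, 617, 598, 705 and 725 CPM in the null at day 5, with 0.14 ± 0.13 (SE, adjusted p = 0.43). Rpl7l1 and Rpl36al were higher at day 5 by 0.97 and 0.46 (adjusted p = 1.8e-05 and 0.035). Rps27l, a p53 target and paralog of Rps27, was lower at day 0, at -0.49 ± 0.089 (SE, adjusted p = 0.00035) and had -0.19 ± 0.13 (SE, adjusted p = 0.26) at day 5.

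The pathway around the ribosome was described with 7 lists of genes. The shares over all genes tested are the background for their counts. They were 19.7% higher and 16.2% lower at day 0, 14.9% and 16.9% at day 2, and 19.8% and 17.8% at day 5. Other mRNAs known to carry a TOP tract were mostly higher in the null at day 5, with 15 higher and 1 lower of 22 tested and a median of 0.50. Among them were Npm1, a nucleolar chaperone, at 1.39 ± 0.13 (SE, adjusted p = 9.3e-06), and Gas5, the host RNA of small nucleolar RNAs, at 1.36 ± 0.17 (SE, adjusted p = 7.4e-05). The elongation factor genes Eef1a1 and Eef2 were higher by 0.74 and 0.70 (adjusted p = 0.0023 and 0.0041). Pabpc1, the poly(A)-binding protein, was the 1 lower gene of this list, at -1.10 ± 0.33 (SE, adjusted p = 0.02). The list had 1 higher and 5 lower of 22 at day 0 and 2 higher and 1 lower of 22 at day 2. Initiation factors outside the TOP class had 1 higher and 11 lower of 24 at day 0, 9 higher and 0 lower of 24 at day 2 and 12 higher and 1 lower of 24 at day 5, with Eif3c at 1.28 ± 0.21 (SE, adjusted p = 0.00053) and Eif6, which keeps free 60S subunits from joining, at 1.26 ± 0.18 (SE, adjusted p = 0.00024). Eif5b was lower, at -1.01 ± 0.23 (SE, adjusted p = 0.0038).

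Genes of rRNA transcription and subunit assembly had 1 higher and 19 lower of 40 at day 0, 26 higher and 0 lower of 40 at day 2 and 32 higher and 0 lower of 40 at day 5, with medians of -0.23, 0.54 and 0.82. At day 5 the largest differences on this list were in Wdr43, Gnl3 and Wdr75, with log2 fold changes of 1.62, 1.56 and 1.51 (adjusted p = 5.5e-06, 4.5e-05 and 1.1e-05). Fewer genes were called at day 2 without WT day 2 replicates 1 and 2. In that fit of 8 libraries, 4 of the 40 assembly genes were higher and none lower, with a median of 0.57 that was no smaller. In the interaction from day 0 to day 2 without these 2 libraries, 27 of 40 had a more positive change in the null (31 with all libraries), with a median of 0.81. That interaction fit called 965 of 14544 genes higher and 826 lower. Between genotypes in the fit of 8 libraries, 1 of 24 initiation factors, 2 of 15 chaperones and importers and none of 22 TOP mRNAs were higher, and none was lower. That fit called 359 of 13508 genes higher and 379 lower. The interaction to day 2 with all libraries called 12% of all genes higher. At day 5 without WT replicates 2 and 5, 33 assembly genes were higher and none lower, beside 2722 of 13517 genes higher and 2448 lower. Over days the list fell in both genotypes, with 39 of 40 lower in WT (median -2.12) and 34 of 40 lower in the null (median -0.99) at day 5 against day 0. Over all genes, 34.7% were lower in WT and 33.3% in the null. Chaperones and importers of ribosomal proteins had 9 higher and 0 lower of 15 at day 5, among them Pdcd2, the chaperone of Rps2, at 1.39 ± 0.13 (SE, adjusted p = 1.0e-05), and Grwd1, the chaperone of Rpl3, at 1.07 ± 0.25 (SE, adjusted p = 0.0048).

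Regulators of TOP mRNAs had genes called in both directions, with 7 higher and 6 lower of 24 at day 5 and a median of -0.01. Over all genes tested at day 5, 19.8% were higher and 17.8% lower. The same shares are the background for the other lists of this paragraph. Eif4ebp1, the mTORC1 target that holds the cap-binding protein, was higher by 2.23 ± 0.25 (SE, adjusted p = 4.0e-05), and its relative Eif4ebp2 was lower, at -1.01 ± 0.35 (SE, adjusted p = 0.035). Cnbp, which binds TOP mRNAs, was higher by 1.29 ± 0.11 (SE, adjusted p = 4.5e-06), and Tial1 lower, at -1.09 ± 0.28 (SE, adjusted p = 0.009). Larp1 had -0.20 ± 0.23 (SE, adjusted p = 0.53) at day 5, and Mtor had -0.05 ± 0.13 (SE, adjusted p = 0.81). Myc, which drives transcription of ribosome genes, was higher by 0.84 ± 0.13 (SE, adjusted p = 0.00031) at day 5 and lower, at -0.39 ± 0.11 (SE, adjusted p = 0.0091) at day 0. Genes of ribosome rescue, recycling and turnover had 6 higher and 4 lower of 17 at day 5, with Ube2o, which clears ribosomal proteins in maturing red cells, lower, at -1.08 ± 0.26 (SE, adjusted p = 0.0063). Genes of nucleolar stress and p53 had 1 higher and 3 lower of 13 at day 5, with Trp53 lower, at -1.06 ± 0.25 (SE, adjusted p = 0.0053) and Sesn2 higher by 1.77 ± 0.37 (SE, adjusted p = 0.0023), and Cdkn1a had 0.13 ± 0.27 (SE, adjusted p = 0.72).

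**Figure D5:**
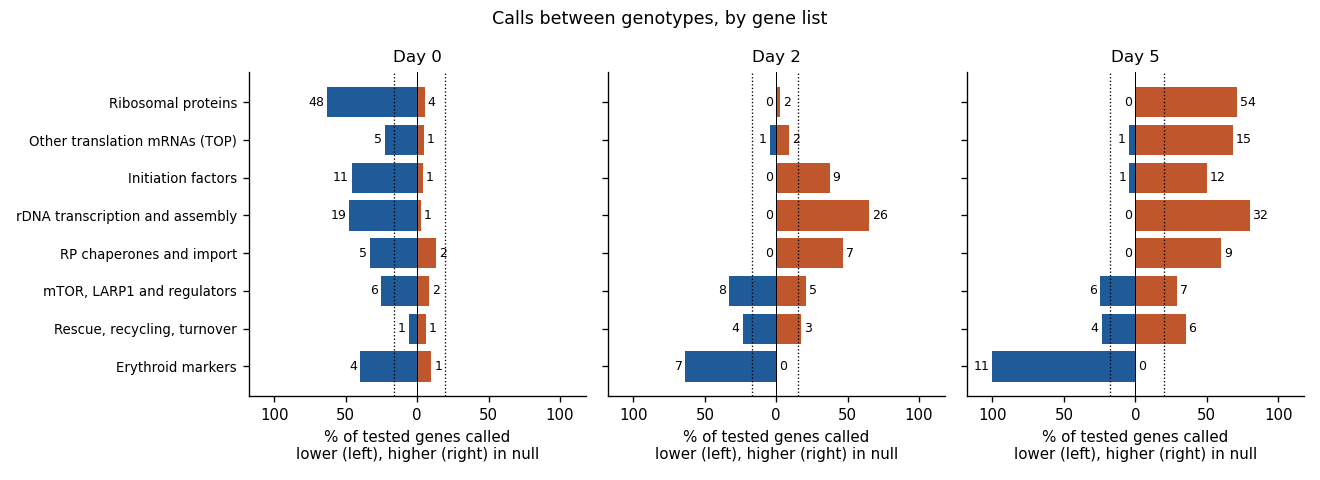
Share of the tested genes of each list called higher (orange, right) or lower (blue, left) in Abcb10-null against WT cells at days 0, 2 and 5, with the number called beside each bar and the shares over all genes as dotted lines. The ribosomal proteins pass from 48 lower at day 0 to 54 higher at day 5, and the erythroid markers are all lower at day 5.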

How the data were processed

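Total RNA of MEL cells, WT or Abcb10-null, was sequenced before DMSO and after 2 and 5 days in it, with 5 libraries per group. Per the methods, libraries were made after removal of rRNA and globin RNA with a stranded total RNA kit, trimmed, and aligned with STAR (2.6.1b, per the submitters' processing notes) to GRCm38. The authors counted reads per gene with featureCounts (1.6.3) and deposited raw counts, and the strand and multiple-placement settings are not given in the sources used here. Depth per library was 9906783 to 20157768 counts, and intervals and SEs reflect the spread between libraries.

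Members were matched by Ensembl ID to an annotation of the same build. The members and gene lists were chosen with earlier results of these data known. Genes were tested with edgeR 4.0.16 in R 4.3.3 (quasi-likelihood test, TMM factors, filterByExpr), using only the 10 libraries of a comparison or the 20 of an interaction, and p-values were adjusted by Benjamini-Hochberg across every gene in the fit and called under 0.05. The levels per library are CPM, counts over the library total scaled by TMM factors of all 30 libraries. Named are the 3 members with the highest and the 3 with the lowest called change of each comparison, members of the anemia and stalk lists, up to 5 called genes of each other list by size of the change, and Abcb10. Rps3, Rpl39, Eef1a1, Eef2, Larp1, Mtor, Myc and Cdkn1a and the members named for their level were chosen after their values were seen. Shared windows are 51-base stretches of the principal transcript found on either strand in transcripts of other genes, overlapping genes included. Scripts were tested on simulated data. The alternatives were DESeq2 1.42.0, library totals, 2 filters, all 30 libraries in 1 fit, a replicate block, leaving out globin, mitochondria-encoded and small RNA genes, leaving out each library in turn, and, chosen after seeing the data, leaving out 2 pairs of WT libraries. Ribosomal proteins with other symbols, such as Rack1, Fau and Rps3a1, were left out of the members by the rule. Values of a few genes are counted but not reported here by name.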

Additional observations from a re-analysis of the deposited data

Results flagged for a closer look

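A value in 1 library stood far from the other 4 of its group in 5 of 96 groups examined, and chance alone gives about 1 in 20. These were Rps16 in WT day 5 replicate 4 (61.47 CPM), Rpl34 and Rps19 in WT day 0 replicate 4 (378.7 and 723.2 CPM), Rpl39 in Abcb10-null day 2 replicate 5 (576.5 CPM), and Abcb10 in Abcb10-null day 2 replicate 3 (311.7 CPM). The Rpl34 and Rps19 values came from 1 library, and without it 53 members were lower at day 0.

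The change over days differed between genotypes by the interaction test in edgeR. From day 0 to day 2 this held for 9 members, among them Rpl12 (0.826), Rpl10a (0.49), Rps16 (1.42) and Rps9 (0.487), and for Rpl22l1 (1.61) and Abcb10 (-0.803), all as log2 differences of change. Without WT day 2 replicates 1 and 2, Rpl12 was the 1 member still called. From day 0 to day 5 it held for 67 members. Among these were Rpl12 (1.52), Rpl10a (1.37), Rpsa (1.09), Rps16 (1.82), Rpl34 (1.06), Rpl27 (0.776), Rps9 (0.588), Rps19 (0.721) and Rps3 (0.833). Outside the members, Rpl22l1 had 2.25 and Abcb10 had -1.84.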

How the results depend on the processing

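For the ribosomal protein genes, the higher levels in the null at day 5 (54 members), the lower levels in WT at day 5 (64) and the interaction to day 5 (67) stayed within 1.5 times of these counts under all 8 other settings and each left-out library. With all 30 libraries in 1 fit, day 0 gave 0 members higher and 2 lower, day 2 gave 7 higher, null day 2 against day 0 gave 6 lower, null day 5 against day 0 gave 13 higher and 2 lower, and the interaction to day 2 gave 5. Library totals in place of TMM factors gave 0 higher at day 2, 26 lower in WT at day 2, 1 higher in WT at day 5 and 1 in the interaction to day 2, and put the median of all genes at 0.222 in WT at day 2, from 0.00957 with TMM factors. Keeping all genes with at least 1 count gave 1 higher at day 2, 1 higher in the null at day 2 against day 0, 10 higher in the null at day 5 against day 0 and 19 in the interaction to day 2, with the median of all genes at 1.35 in WT and 1.53 in the null at day 5 against day 0. Requiring 10 counts in every library gave 1 higher at day 2 and 1 higher in WT at day 5. Leaving out globin, mitochondria-encoded and small RNA genes gave 1 higher at day 2, and DESeq2 gave 1 higher in the null at day 2 against day 0. Without WT day 2 replicates 1 and 2, chosen after seeing the data, day 2 gave 0 members higher with a median of -0.0901, the interaction to day 2 gave 1, and its median was 0.136. Without WT day 5 replicates 2 and 5, 1 member was lower between genotypes at day 5 and 2 were higher in WT at day 5 against day 0. The causes were not tested.

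Leaving out each library in turn gave 1 to 4 members higher at day 0, 0 to 4 higher at day 2 between genotypes, 0 to 1 higher in WT at day 5 against day 0, 0 to 3 higher and 3 to 11 lower in the null at day 2 against day 0, and 4 to 18 in the interaction to day 2. The replicate numbers were checked for pairing: in 75 pairs of same-numbered libraries the correlation of deviations from the group means was -0.2403 to 0.3588 (median -0.01624), and 9 pairs were over 0.1. Such correlations cannot settle whether same-numbered libraries shared a culture or batch, and the main fits used no pairing. With a replicate block, 1 member was higher at day 0, and in the null at day 2 against day 0, 1 was higher and 4 lower. It gave 66 higher at day 5 and 68 in the interaction to day 5. Of the named genes' values, none reversed under the 8 settings, with 2896 on the same side of the threshold, 217 no longer past it and 38 newly past it.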
